A study of Mus musculus with 6 samples.

Results

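A set of 10 activity-induced genes was followed in cerebellum RNA: the transcription factors Egr1, Egr2, Egr3, Fos, Fosb, Junb, Nr4a1 and Npas4, the nuclear protein gene Ier2 and the synaptic effector Arc. The genes were taken by name and role, with earlier results of these data known, and all were found among the 46983 gene identifiers of the count tables. Of the 10, 9 passed the filter on low counts and were among the 16851 genes tested, while Egr2 did not pass. The samples were cerebella of 6 C57BL/6J mice at 60 days of age, taking each library as 1 mouse, which the labels do not state. All 6 animals carried the Tie2-Cre transgene, which drives recombination in endothelial and blood lineages. The 3 animals labelled WT had 1 floxed Slc7a5 allele and 1 intact allele (Slc7a5 fl/+), so the controls also carry Cre and a floxed allele. The 3 animals labelled Slc7a5-KO (KO-labelled animals below) had both alleles floxed (Slc7a5 fl/fl). The comparison asks what loss of Slc7a5, the large neutral amino acid transporter LAT1, from brain vessels does to gene expression in the cerebellum. Values for the 3 animals of a group are given in the order of replicates 1 to 3.

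Immediate early genes are transcribed within minutes of a stimulus, without new protein synthesis, and their short-lived mRNAs fall again soon after. In neurons, calcium entry and kinase signalling act on factors already bound at their promoters, among them CREB at cyclic AMP response elements (CRE) and SRF with its partners at CArG boxes. The EGR, FOS, JUN and NR4A proteins then control later genes, and Arc protein acts at the synapse on glutamate receptor trafficking. Vascular cells and glia also induce many of these genes. Handling and anaesthesia before tissue collection can move them; per the labels the mice were killed under anaesthesia and the brains dissected on ice, so each animal is shown.

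For 6 of the 10 genes the RefSeq table (GRCm38.p6) held a window of 250 bases before and 50 bases from a start site, of which the bases before the start are printed. These were Egr2, Fos, Fosb, Junb, Nr4a1 and Npas4. Capitals mark matches, on either strand, to the CRE core (TGACG, which a full CRE, TGACGTCA, contains on both strands), the CArG box, an EGR site (GCGTGGGCG or GCGGGGGCG), the AP-1 site (TGACTCA) or a TATA box (TATAAA, plus strand). Fos, Nr4a1 and Npas4 are printed as the genes with the widest spread within groups among those of the set with a mean of at least 5 CPM, Fosb as the FOS family member with the larger group difference, and Egr2 as the gene nearly absent from WT libraries.
Fos, chr12:85473640-85473889, plus strand: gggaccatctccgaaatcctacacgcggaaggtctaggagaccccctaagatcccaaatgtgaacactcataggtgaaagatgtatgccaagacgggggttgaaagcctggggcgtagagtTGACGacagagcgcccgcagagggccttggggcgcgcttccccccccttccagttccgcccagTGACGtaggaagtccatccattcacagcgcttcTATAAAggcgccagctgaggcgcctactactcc
Nr4a1, chr15:101266596-101266845, plus strand: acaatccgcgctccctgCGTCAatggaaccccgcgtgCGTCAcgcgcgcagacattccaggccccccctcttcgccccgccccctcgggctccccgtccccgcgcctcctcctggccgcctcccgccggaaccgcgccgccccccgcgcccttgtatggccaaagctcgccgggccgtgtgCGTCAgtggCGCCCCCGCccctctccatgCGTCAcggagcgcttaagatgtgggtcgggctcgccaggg
Npas4, chr19:4989972-4990221, minus strand: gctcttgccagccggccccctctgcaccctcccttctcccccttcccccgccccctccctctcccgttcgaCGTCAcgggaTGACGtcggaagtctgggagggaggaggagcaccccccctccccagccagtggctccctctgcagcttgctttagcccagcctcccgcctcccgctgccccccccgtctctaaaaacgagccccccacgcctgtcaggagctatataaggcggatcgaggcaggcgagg
Fosb, chr7:19310046-19310295, minus strand: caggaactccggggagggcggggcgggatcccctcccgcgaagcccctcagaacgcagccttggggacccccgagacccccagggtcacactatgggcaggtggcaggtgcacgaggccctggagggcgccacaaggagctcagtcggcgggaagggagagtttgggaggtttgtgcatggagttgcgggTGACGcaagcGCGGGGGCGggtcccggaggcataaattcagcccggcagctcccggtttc
Egr2, chr10:67537619-67537868, plus strand: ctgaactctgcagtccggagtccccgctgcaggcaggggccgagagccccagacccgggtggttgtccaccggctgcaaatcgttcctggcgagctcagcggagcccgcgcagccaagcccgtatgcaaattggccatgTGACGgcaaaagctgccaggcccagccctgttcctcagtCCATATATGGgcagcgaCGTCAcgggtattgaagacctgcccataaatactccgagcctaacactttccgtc

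All 6 genes with a window held at least 1 CRE core, a motif present in 20.9% of the 32544 promoter windows of the table (for Egr2, in 3 of its 5 windows). The Nr4a1 window held 4 CRE cores and 1 EGR site, and the Npas4 window held 2 CRE cores on opposite strands, at bases -179 to -175 and -169 to -165 from the start. The Fos window held CRE cores at -129 to -125 and -66 to -62 and a TATA box. The Egr2 window combined a CArG box at -72 to -63 with 2 CRE cores. A CArG box stood in 1.64% of all windows, an EGR site in 3.5%, a full CRE in 1.8% and an AP-1 site in 5.19%. None of the 6 genes had a full CRE or an AP-1 site in these windows. The start sites used for Nr4a1 and Egr2 lie inside the longer GENCODE models of these genes. A match gives letters in a window only, and factor binding was not measured here.

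**Figure D1:**
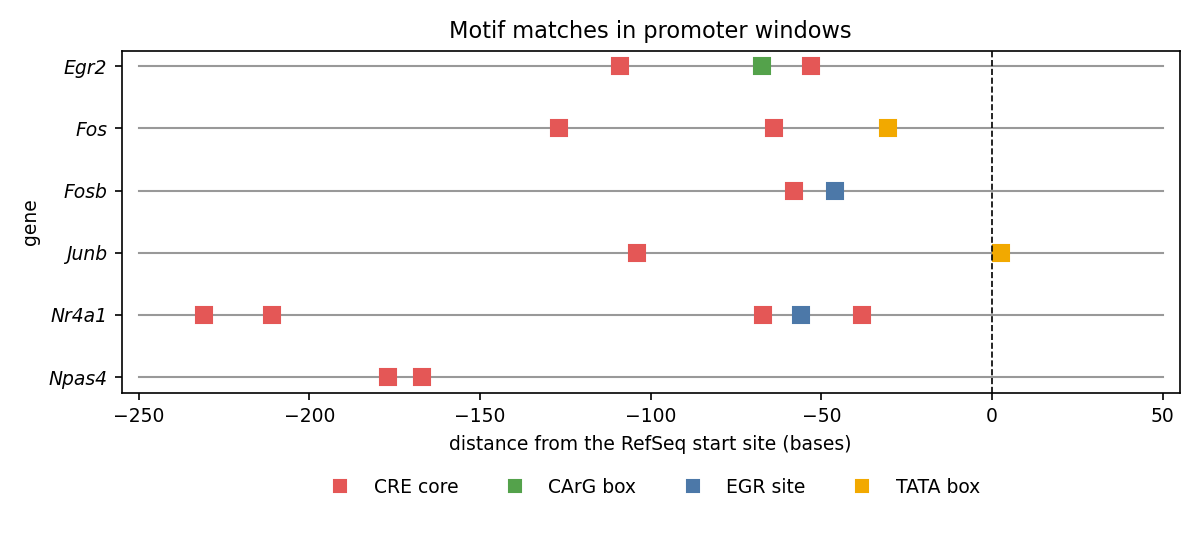
Motif matches (squares) along the promoter windows of 6 genes, with the x axis giving the distance in bases from the RefSeq start site (dashed line). Each gene has at least 1 CRE core, and Nr4a1 has 4.

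Per library, 13.4 to 34.2 M reads (M, 1000000) were assigned to genes, with Slc7a5-KO replicate 3 the shallowest. The targeted gene did not bear out the labels: in counts per 1000000 gene reads (CPM), Slc7a5 stood at 72.0, 66.3 and 43.2 in WT replicates 1 to 3 and at 164, 59.4 and 118 CPM across KO-labelled animals (log2 0.91 ± 0.42, edgeR adjusted p = 0.84). Counts over the whole gene are a weak check when the deleted exon is not known and recombination is limited to vessel and blood cells. Every direction below follows the labels. Cerebellar markers were abundant in all 6 libraries, with Gabra6, a granule neuron receptor subunit, at 442 to 1076 CPM and the Purkinje cell gene Pcp2 at 369 to 623 CPM. By Xist and Y-linked genes, WT replicate 2 and Slc7a5-KO replicates 1 and 3 were female and the other 3 animals male. In bulk tissue, a difference in RNA per cell and a difference in the number of cells of a type cannot be told apart.

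Egr1 was the gene of the set with the clearest group difference. It encodes a zinc-finger transcription factor with substantial basal expression in brain. Egr1 measured 26.8, 28.5 and 25.5 CPM across WT animals and 72.8, 38.7 and 54 CPM across KO-labelled animals. All 3 KO-labelled animals lay above all WT animals, and the WT animals lay close together while those labelled Slc7a5-KO were spread 1.88-fold from lowest to highest. Group means were 26.9 ± 1.50 and 55.2 ± 17.1 CPM (SD, n = 3 animals per group), and the fold change on the log2 scale was 1.04 ± 0.20 (SE, edgeR unadjusted p = 4.82e-05).

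Egr1 missed the threshold over all genes in edgeR, with an adjusted p of 0.068, against a threshold of 0.05. It passed in DESeq2 (log2 1.03, DESeq2 adjusted p = 0.0016), without the filter on low counts (1.03, edgeR adjusted p = 1.2e-05) and without Slc7a5-KO replicate 2 (1.23, edgeR adjusted p = 0.0037). It did not pass with limma-voom (0.999, limma adjusted p = 0.11) or with a term for sex, which is unbalanced between the groups (0.86, edgeR adjusted p = 0.16). Leaving out any other library kept the log2 value between 0.78 and 1.08 with an edgeR adjusted p of 0.17 to 0.52. The authors' deposited table lists Egr1 at 1.03 (log2, unshrunken; adjusted p = 9.28e-05). Of the set, Egr1 alone passed in the authors' deposited table, where 0.9% of 14561 genes with an adjusted p passed, and Egr1 alone passed in DESeq2, where 0.339% of genes did.

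Egr2 and Egr3, relatives of Egr1 with similar zinc fingers, were scarce and also separated the groups. Egr2 had 3, 0 and 0 reads in WT replicates 1 to 3 and 15, 26 and 4 reads across KO-labelled animals. These are 0.0848, 0 and 0 CPM against 0.464, 0.972 and 0.294 CPM. Summed by group, 3 reads among 91.5 M gene reads stood against 45 among 71.8 M gene reads, a ratio of 19.1 with an exact (Clopper-Pearson) 95% interval of 6.13 to 96.1. That interval covers counting error alone and not differences between animals, and reads without molecular identifiers may be PCR copies. With no filter on low counts the edgeR adjusted p for Egr2 was 0.694, so the difference did not pass once the spread between animals was counted.

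Egr3 measured 0.876, 0.325 and 0.579 CPM across WT animals and 1.05, 2.80 and 1.69 CPM across KO-labelled animals, from 9 to 75 reads per library. The groups did not overlap, but the lowest KO-labelled animal lay just above the highest WT animal. The fold change on the log2 scale was 1.63 ± 0.88 (SE, edgeR adjusted p = 0.84). Both Egr2 and Egr3 peaked in Slc7a5-KO replicate 2. Emx1, a marker of cortical neurons, stood at 0.486 CPM in that library and 0.537 CPM in WT replicate 1 and was at 0 in the other 4 libraries. Its part in the Egr2 and Egr3 values was not tested.

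Egr4, the remaining member of the EGR family, was outside the set and followed the same split. It measured 1.05, 1.91 and 1.48 CPM across WT animals and 3.81, 2.84 and 2.94 CPM across KO-labelled animals (log2 1.11 ± 0.53, edgeR adjusted p = 0.80). Thus all 4 EGR genes were higher in every KO-labelled animal than in every WT animal, and none of them passed edgeR's threshold over all genes. Among all genes tested, 5.93% had every KO-labelled animal above every WT animal. Of the 9 tested genes of the set, 2 (Egr1 and Egr3) were so separated, and with Egr2 the count is 3 of 10. Egr3 had 9 reads in WT replicate 2, so only the KO-labelled group reached the filter's minimum count of 10 in every animal. The place of Egr3 among the tested genes thus depends on the group where it was higher. Egr2 did not pass the filter, so the 5.93% does not cover it. Its separation rests on 3 reads in WT replicate 1 against 4 reads in Slc7a5-KO replicate 3, the shallowest library.

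**Figure D2:**
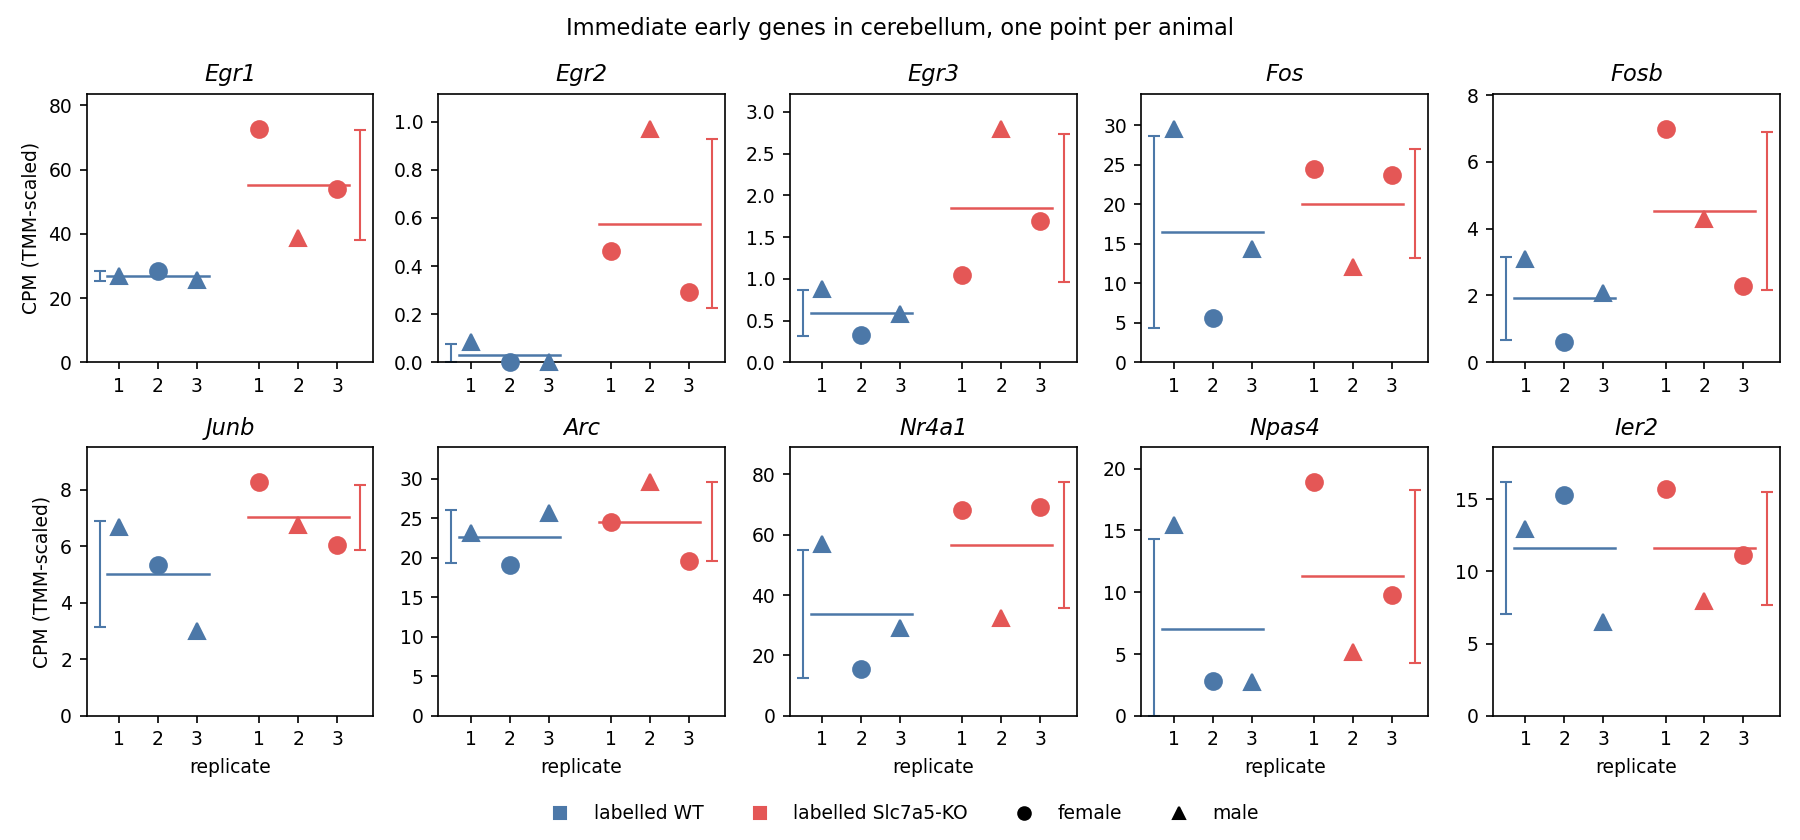
CPM of each gene (y axis, starting at 0) in each animal by replicate number (x axis), with circles for females and triangles for males. Horizontal lines are group means and side bars are ± SD (n = 3, lower ends stopped at 0). Egr1, Egr2 and Egr3 separate the groups, while the other 7 genes overlap.

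Fos and Fosb encode subunits of the AP-1 dimer, and both overlapped between the groups. Fos measured 29.6, 5.56 and 14.4 CPM across WT animals and 24.5, 12.1 and 23.7 CPM across KO-labelled animals. The highest and the lowest values were both in WT animals, a 5.33-fold range, so the groups overlapped fully. The log2 fold change of Fos was 0.28 ± 0.65 (edgeR adjusted p = 0.99), and it was -0.133 without WT replicate 2.

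Fosb, whose truncated product accumulates under repeated stimulation, measured 3.08, 0.614 and 2.06 CPM across WT animals and 7.0, 4.30 and 2.28 CPM across KO-labelled animals. Replicates 1 and 2 of the latter exceeded every WT animal and replicate 3 lay between the upper WT values. The log2 fold change was 1.24 ± 0.56 with an edgeR unadjusted p of 0.0394 and an adjusted p of 0.78. Egr1 and Fosb were the 2 of 9 tested genes with an unadjusted p under 0.05, a level that 6.22% of all genes tested reached.

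Junb, an AP-1 subunit with weaker activating ability than JUN, measured 6.70, 5.34 and 3.01 CPM across WT animals and 8.27, 6.76 and 6.03 CPM across KO-labelled animals. Only replicate 3 of the latter lay below the highest WT animal. Its log2 fold change was 0.49 ± 0.35 (edgeR adjusted p = 0.91). Junb overlaps Prdx2, which lies on the opposite strand, and strand-specific counts were used.

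Nr4a1 encodes an orphan nuclear receptor and had the highest mean level of the set per kilobase of exon. It measured 57.0, 15.4 and 29.1 CPM across WT animals and 68.2, 32.4 and 69.0 CPM across KO-labelled animals. Slc7a5-KO replicates 1 and 3 exceeded every WT animal, and replicate 2 lay inside the WT range. Group means were 33.8 ± 21.2 and 56.5 ± 20.9 CPM (SD, n = 3), and the fold change on the log2 scale was 0.74 ± 0.61 (edgeR adjusted p = 0.95).

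Npas4, a factor induced selectively in neurons by calcium entry, measured 15.4, 2.82 and 2.75 CPM across WT animals and 18.9, 5.19 and 9.78 CPM across KO-labelled animals. WT replicate 1 exceeded 2 of the 3 KO-labelled animals, so the groups overlapped. The fold change on the log2 scale was 0.69 ± 0.90 (edgeR adjusted p = 0.97). It ran from 0.08 without Slc7a5-KO replicate 1 to 2.03 without WT replicate 1.

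Arc and Ier2 showed the smallest differences. Arc measured 23.2, 19.1 and 25.7 CPM across WT animals and 24.5, 29.6 and 19.6 CPM across KO-labelled animals (log2 0.12 ± 0.20, edgeR adjusted p = 0.98). Its values overlapped throughout, with a 1.35-fold range in WT and a 1.51-fold range in the other group. Ier2, which encodes a small nuclear regulator, stood at 12.9, 15.3 and 6.48 CPM and at 15.7, 7.92 and 11.1 CPM, with equal group means of 11.6 CPM and SDs of 4.57 and 3.91 (log2 0.0025 ± 0.32, edgeR adjusted p = 1.0). These p-values do not show that Arc and Ier2 were equal between groups.

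Read as a set, all 9 tested genes had log2 fold changes above 0 (Ier2 by 0.0025 alone, and below 0 under several settings). Over all genes tested, 8477 of 16851 were above 0. The 9 genes were measured in the same 6 animals, so their signs are not 9 separate observations. Their median was 0.69, beside a median of 0.002 over all genes tested. None of the 9 was called at a false discovery rate of 0.05 in edgeR, where 0.0475% of all genes tested were called (8 genes). Without WT replicate 1 the median was 1.03, and its lowest value with 1 library left out was 0.31. Across all 10, per-kilobase levels ran from 12.9 CPM per kilobase of merged exons for Nr4a1, through Egr1 (9.15), Fos (7.79), Arc (7.73), Ier2 (7.60), Junb (2.61), Npas4 (2.21), Fosb (0.516) and Egr3 (0.277), to Egr2 at 0.089. Ranges over the 6 animals overlapped between all neighbours in this order except Ier2 and Junb.

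**Figure D3:**
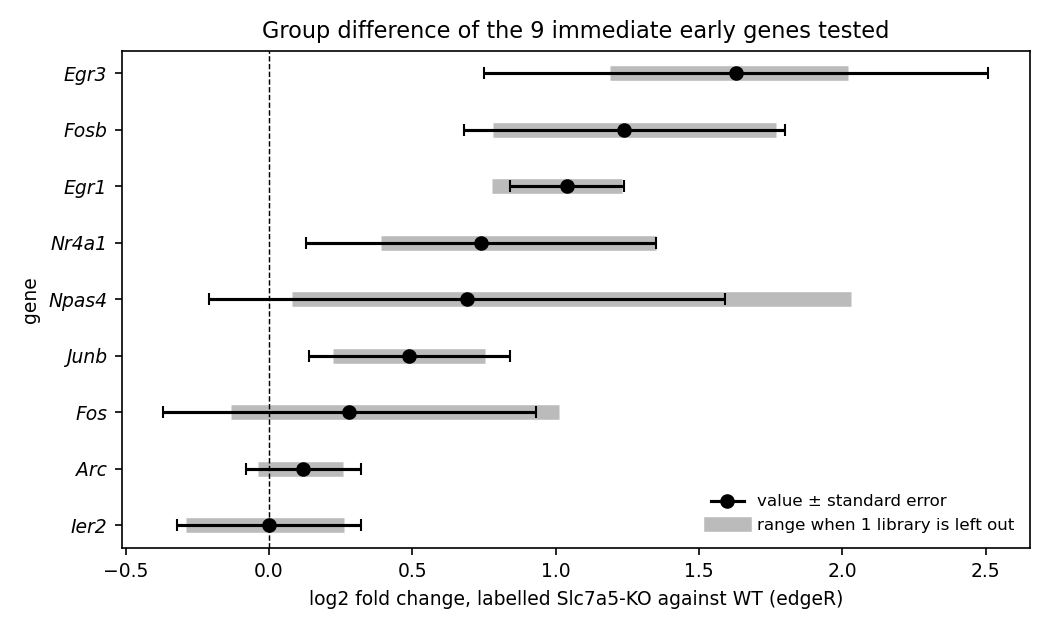
log2 fold change of the 9 tested genes (x axis) with its standard error (black) and the range when 1 library is left out (grey). Egr1 has the narrowest error among the genes above 1, and the grey ranges of Fos, Arc and Ier2 cross 0.

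The extreme values gathered in a few animals. WT replicate 2 was the lowest of the 6 animals for 5 genes and WT replicate 3 for 4, with Egr2 at 0 in both. Slc7a5-KO replicate 1 was the highest for 5, replicate 2 for 3 (Egr2, Egr3 and Arc), replicate 3 for Nr4a1, and WT replicate 1 for Fos. Averaged over the 9 tested genes, log2 CPM relative to each gene's mean was 0.29, -0.87 and -0.56 in WT replicates 1 to 3. It was 0.71, 0.13 and 0.31 across KO-labelled animals. WT replicate 1 therefore lay above Slc7a5-KO replicate 2 and close to replicate 3.

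Several genes of the set varied widely within a group. Among the 11575 genes with a mean of at least 5 CPM, a level chosen after the data were seen, the median SD of log2 CPM within groups was 0.22. Npas4 had an SD of 1.19, Fos 0.94 and Nr4a1 0.80, and 0.346%, 0.536% and 0.89% of these genes had a larger one. Ier2 (0.58), Junb (0.44) and Egr1 (0.33) had smaller SDs, which 3.34%, 8.73% and 22.2% of these genes exceeded. Arc (0.26) had a spread that 36.6% of genes exceeded. Within WT alone Egr1 was steadier than most genes, with a 1.12-fold range from lowest to highest that 86.4% of them exceeded. In the same 3 animals the range was 5.6-fold for Npas4, 5.33-fold for Fos, 5.02-fold for Fosb and 3.71-fold for Nr4a1.

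**Figure D4:**
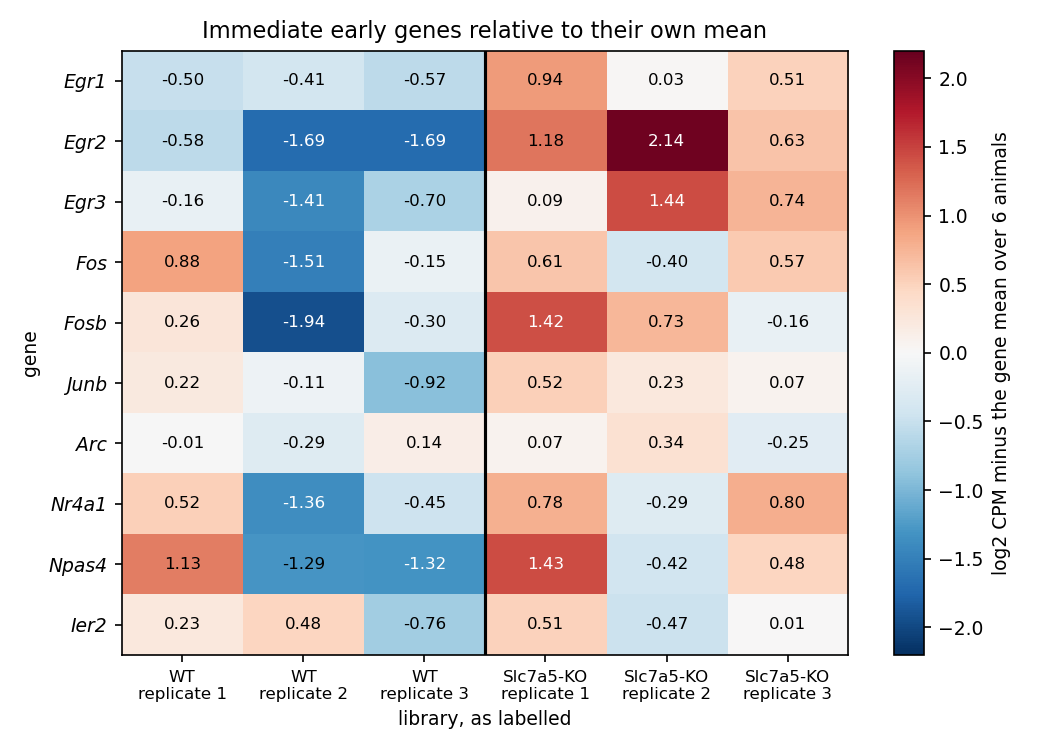
log2 CPM of each gene (rows) in each library (columns) minus the gene's mean over the 6 animals, with red above and blue below the mean. WT replicate 2 is at -1.94 for Fosb, -1.51 for Fos, and -1.41 for Egr3, and Slc7a5-KO replicate 1 is above the mean for all 10 genes.

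The group difference was also read within each sex, a split chosen after the data were seen and with 1 WT female and 1 male labelled Slc7a5-KO. The spread of these lone animals cannot be measured, and the fit assumes that they vary like the others, so its p-values rest on that assumption. WT replicate 2, the lone WT female, was also the lowest of the 6 animals for Fos and Nr4a1. Fos had a log2 difference of 2.12 in females (5.56 against 24.5 and 23.7 CPM) and -0.86 in males (29.6 and 14.4 against 12.1 CPM). The male difference minus the female one was -2.98 ± 0.56 (edgeR adjusted p = 0.038). For Nr4a1 the differences were 2.16 in females and -0.41 in males, and they differed by -2.57 ± 0.45 (edgeR adjusted p = 0.025). Over all genes tested, 0.231% passed this test of the sex and group interaction.

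Npas4 had 2.36 and -0.81 (edgeR adjusted p = 0.57 for the difference), and Fosb 2.93 and 0.74 (edgeR adjusted p = 0.69). Egr1 was above 0 in both sexes, at 1.16 and 0.56, and Egr3 at 2.05 and 1.94, and neither difference between sexes passed (edgeR adjusted p = 0.72 and 1.0). Leaving out WT replicate 1 ended the calls (Fos -2.37, edgeR adjusted p = 0.62, and Nr4a1 -2.00, 0.41), as did leaving out WT replicate 3 (-3.38, 0.12, and -2.95, 0.054). The Nr4a1 call also ended without Slc7a5-KO replicate 1 (-2.58, edgeR adjusted p = 0.056) or replicate 3 (-2.56, 0.078). Brainstem markers moved with sex: their summed level over 8 genes was 58.9, 81.0 and 98.4 CPM in the 3 females and 142 to 195 CPM in the 3 males. Sex and the level of brainstem markers cannot be told apart here.

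Other genes of the activity response were examined as lists, and none of their members was called by edgeR. Of 15 tested transcription factors outside the set, 11 had log2 values above 0 and 4 below, with a median of 0.31. After Egr4, the smallest p-values were those of Fosl2, another FOS family gene (log2 0.41 ± 0.22, edgeR adjusted p = 0.85), and Klf10, a zinc-finger repressor (0.40 ± 0.23, edgeR adjusted p = 0.86). Fosl2 measured 16.4, 12 and 11.9 CPM across WT animals and 19.9, 16.3 and 17.2 CPM across KO-labelled animals.

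Of 18 tested feedback regulators, which switch off signalling or transcripts after induction, 13 were above 0 and 5 below, with a median of 0.21. Ier3, an early response gene of stress and growth signals, measured 15.1, 13.9 and 14.0 CPM across WT animals and 23.9, 15.0 and 23.9 CPM across KO-labelled animals (log2 0.54 ± 0.22, edgeR adjusted p = 0.75). Gadd45b, a stress and activity gene linked to DNA demethylation, stood at 5.79, 7.90 and 6.95 against 10.8, 12 and 9.04 CPM, with no overlap (0.63 ± 0.28, edgeR adjusted p = 0.76). Nab2, a corepressor that binds EGR proteins, had 0.44 ± 0.26 (edgeR adjusted p = 0.86).

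Later effectors had a median of 0.30, with 9 of 12 above 0 and 3 below. Vgf, a secreted neuropeptide precursor, had the smallest p of these lists, with 18.7, 19.7 and 24.4 CPM across WT animals and 33.7, 79.5 and 45.1 CPM across KO-labelled animals. The groups did not overlap, and the fold change on the log2 scale was 1.33 ± 0.26 (edgeR adjusted p = 0.16). Rasgrp1, a Ras activator, had 0.31 ± 0.15 (edgeR adjusted p = 0.80) and Nptx2, a pentraxin that clusters glutamate receptors, 0.86 ± 0.41 (edgeR adjusted p = 0.81).

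Upstream factors and kinases lay close to 0, with a median of 0.08 and 15 of 21 above 0. Camk2a, a calcium-dependent kinase subunit, measured 187, 205 and 190 CPM across WT animals and 229, 409 and 286 CPM across KO-labelled animals (log2 0.67 ± 0.17, edgeR adjusted p = 0.29). Like Egr2, Egr3 and Vgf, it peaked in Slc7a5-KO replicate 2. Mkl2, a coactivator of SRF, had 0.43 ± 0.14 (edgeR adjusted p = 0.59) and Crebbp, the CREB-binding protein, 0.22 ± 0.13 (edgeR adjusted p = 0.86). Srf itself had 0.08 and Creb1 -0.04, both named after their values were seen.

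**Figure D5:**
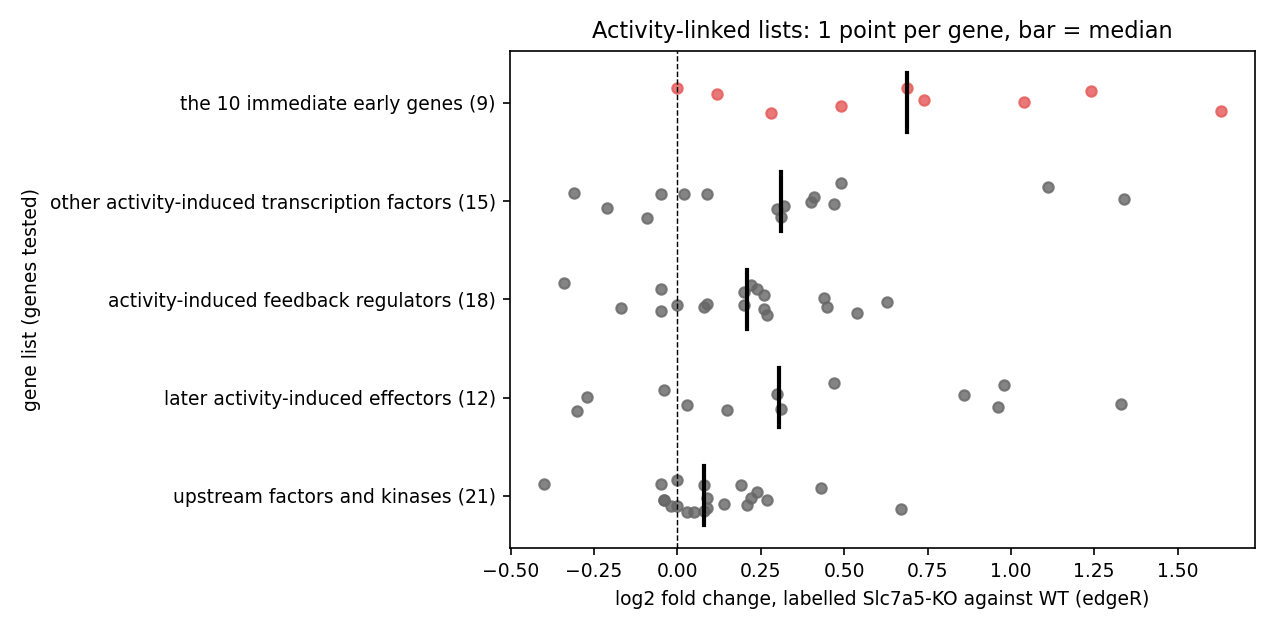
log2 fold change (x axis) of each tested gene (points) in the 10-gene set and in 4 further activity-linked lists (y axis, with the number tested), with medians as bars. Medians are 0.69, 0.31, 0.21, 0.30 and 0.08 from top to bottom.

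Lists that bear on handling and time of day were set beside these values. Glucocorticoid-induced genes, a readout of stress hormone, had a mean centred level of 0.34, -0.39 and -0.18 in WT replicates 1 to 3 and of -0.04, -0.01 and 0.28 across KO-labelled animals. Their lowest and second lowest values were thus in the same WT animals as those of the 10-gene set. The upper end differed: their highest value was in WT replicate 1. Slc7a5-KO replicate 1, the highest for the set at 0.71, had -0.04. Heat shock genes ran from -0.39 to 0.13 in WT and from -0.05 to 0.13 in the other group. Clock genes ran from -0.06 to 0.04 and from -0.07 to 0.08. The part of handling or stress in the immediate early gene values was not tested.

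Cell type markers gave these values beside the set. Summed Purkinje cell markers ran from 5774 to 7364 CPM in WT and from 4114 to 6112 CPM across KO-labelled animals, with all 10 log2 fold changes below 0 and none called by edgeR. Granule neuron markers ran from 4484 to 6554 and from 3936 to 6216 CPM. Endothelial markers, from the cells in which Tie2-Cre acts, ran from 342 to 407 and from 343 to 434 CPM, and microglia markers from 262 to 332 and from 327 to 366 CPM. Of the 8 microglia markers, 7 had log2 fold changes above 0 and 1 below, with none called by edgeR. For 2 of the 8, every KO-labelled animal lay above every WT animal, as for 5.93% of all genes tested. Summed Bergmann glia and astrocyte markers did not overlap, at 5296 to 5465 CPM in WT and 4764 to 5015 CPM across KO-labelled animals. Their log2 fold changes were above 0 for 4 genes and below 0 for 6, with none called by edgeR. The mean centred level of that list overlapped, at -0.07 to 0.1 in WT and -0.12 to 0.04 across KO-labelled animals. In that list, 1 gene had every KO-labelled animal above every WT animal and 0 had the reverse. Oligodendrocyte markers ran from 4128 to 6162 and from 4278 to 7339.8 CPM, and blood cell markers from 107 to 355 and from 124 to 231 CPM. Choroid plexus markers ran from 3677 to 7846 CPM in WT and summed to 3448, 276 and 6274 CPM across KO-labelled animals. Their part in the immediate early gene values was not tested.

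The genes whose profile over the 6 animals lay closest to the mean profile of the 9 tested genes included no gene of the activity-linked lists. The measure was the root-mean-square difference of centred log2 CPM, over 14685 genes with a mean of at least 1 CPM. The closest were Rpl31 (0.157), Ptprc (0.170), A830092H15Rik (0.172), Gm26703 (0.173) and Gm7008 (0.180). Ptprc, the leukocyte antigen CD45, measured 2.37, 1.01 and 1.01 CPM across WT animals and 2.54, 1.57 and 1.84 CPM across KO-labelled animals. Rpl31 encodes a ribosomal protein with near-identical copies in the genome, so its count is uncertain. Within the set, Nr4a1 (0.35) and Junb (0.37) lay closest to the mean profile and Egr3 (0.68) farthest.

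On GRCm38 (GENCODE M21) the 10 genes are protein-coding and lie on 8 chromosomes. Egr1 (ENSMUSG00000038418.7) lies on chromosome 18, 34859823 to 34864984, Egr2 (ENSMUSG00000037868.15) on 10, 67535475 to 67542188, and Egr3 (ENSMUSG00000033730.3) on 14, 70077203 to 70082614, all on the plus strand. Fos (ENSMUSG00000021250.13) lies on 12, 85473890 to 85477273, plus strand, and Fosb (ENSMUSG00000003545.2) on 7, 19302696 to 19310051, minus strand. Junb (ENSMUSG00000052837.5) and Ier2 (ENSMUSG00000053560.4) both lie on the minus strand of 8, at 84974484 to 84978718 and 84661331 to 84662852. Arc (ENSMUSG00000022602.14) and Nr4a1 (ENSMUSG00000023034.6) lie on 15, at 74669083 to 74672570 (minus strand) and 101254269 to 101274795 (plus strand). Npas4 (ENSMUSG00000045903.8) lies on 19, 4984355 to 4990316, minus strand.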

How the data were processed

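The authors deposited raw read counts per gene, 1 table per library, aligned with STAR 2.5.4 to GRCm38 (mm10) per the submitters' processing notes. Their annotation release was not given in the sources used here. GENCODE M21 models were used for loci and exon lengths. Multimapping reads are listed as 0. Column 4, the reverse-strand count, was used, since it held 94.8% to 95.8% of stranded gene reads and the SENSE kit keeps strand. Rows naming no gene (19.5% to 22.2% of reads) were left out. The authors' deposited comparison (DESeq2 1.10.1, per the submitters' processing notes) holds log2 fold changes, p-values, a Wald score and a mean normalised signal over all libraries, per the file headers.

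Symbols were matched for 46488 of 46983 identifiers. Counts were filtered (filterByExpr, minimum count 10, minimum total 15), scaled by TMM and tested over all genes with edgeR 4.0.16 (quasi-likelihood, robust, 2-sided, Benjamini-Hochberg, false discovery rate 0.05) in R 4.3.3. The edgeR, DESeq2 1.42.0 and limma-voom (limma 3.58.1) fits were tested on simulated data, with an outcome not given here. The simulated data held no difference by sex and did not cover the interaction of sex and group. CPM are TMM-scaled, centred log2 CPM used a prior count of 2, and a symbol changed since (Mkl2, now Mrtfb) was matched through RefSeq. The ± sign marks an SD beside CPM and a standard error beside log2 values. Each library was taken as 1 mouse; the labels number the libraries separately but do not state separate animals, so p-values measure the spread between these samples. Named genes outside the set are the 3 with the smallest p in each list and the 5 closest profiles, beside Slc7a5, marker genes and, chosen after their values were seen, Srf and Creb1. The set and the lists were chosen with earlier results of these data known. Alternatives were other scalings, no filter, both-strand counts (column 2), DESeq2, limma-voom, a sex term, the replicate number as a block, and each library removed in turn. The interaction of sex and group was added after the data were seen. Some marker genes are not reported here.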

Additional observations from a re-analysis of the deposited data

Results flagged for a closer look

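Fos and Nr4a1 passed a test of the interaction of sex and group, chosen after the data were seen. The male log2 difference minus the female one was -2.98 for Fos and -2.57 for Nr4a1 (edgeR adjusted p = 0.038 and 0.025). There was 1 WT female (WT replicate 2) and 1 male labelled Slc7a5-KO (replicate 2), so these calls rest on single animals whose spread was assumed, not measured, and a difference between the sexes is not shown. WT replicate 2 was also the lowest animal for both genes (5.56 and 15.4 CPM). All 4 fits that left out another library kept the sign for both genes, while the Fos call ended in 2 of them and the Nr4a1 call in 4.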

How the results depend on the processing

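Genes called over all genes tested numbered 8. The count was 71 with no filter on low counts, 46 with DESeq2 and 16 with a sex term, and 3 (without WT replicate 3) to 20 (without Slc7a5-KO replicate 1, or replicate 2) when 1 library was left out. Of the 9 tested genes of the set, 0 were called; 1 (Egr1) was called with no filter, 1 with DESeq2, and 0 to 1 when 1 library was left out (1 without Slc7a5-KO replicate 2). The median log2 fold change of the set was 0.31 to 1.03 when 1 library was left out. Tested genes of the set whose groups did not overlap numbered 2 with all libraries and 2 to 6 with 1 library left out. Dropping WT replicate 1 gave 6, and dropping Slc7a5-KO replicate 3 gave 4. Fewer animals make separation easier for any gene. The 5.93% of all genes given above is for 6 animals, and no such share is given for these smaller comparisons. Whether the rise in the count sets these genes apart from other genes was therefore not tested.

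Ier2 turned below 0 with RLE scaling (-0.0023), with no filter (-0.0021), with DESeq2 (-0.0028) and with a sex term (-0.24), and lay between -0.289 and 0.26 with 1 library removed. With 1 library removed, Fos ran from -0.133 to 1.01 and Arc from -0.0373 to 0.257. With the replicate number as a block, Egr1 had 0.99 (edgeR adjusted p = 0.14), the median of the set was 0.86, and 6 genes were called over all genes; no gene of the set was called. The block moved the edgeR adjusted p of Nr4a1 from 0.95 to 0.23 and of Npas4 from 0.97 to 0.69. Over all genes tested, same-numbered samples did not deviate together (correlations of deviations -0.0381, -0.0588 and -0.0267), so the numbers were not treated as pairs. Within the set, the mean level ranked replicates 1, 3, 2 from the highest in both groups. That order held for 4 of 9 tested genes in each group, with Fos alone in both. Among all genes tested it held for 19.8% in WT and 15.7% in the other group. Depth limited Egr2 and Egr3, with 0 to 26 and 9 to 75 reads per library.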
